A study of Mus musculus with 30 samples.

Results

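CTCF peaks of mouse embryonic stem cells were compared before and after the protein was degraded. The cells were of the established line E14 with the genotype CTCF AID, in which CTCF carries the auxin-inducible degron (AID), a tag through which the plant hormone IAA (indole-3-acetic acid) sends a protein to the proteasome. One group received no IAA (0 h) and the other received IAA for 12 h. Both were the same degron line, grown without serum with leukemia inhibitory factor and the inhibitors PD0325901 and CHIR99021, and a line with untagged CTCF was not analysed here. Whether the line is 1 clone is not given in the sources used here. CTCF was mapped by ChIP-seq, the sequencing of DNA that an antibody pulls down with its target, in 1 library per time, 2 of the 30 samples of the series. The members were the 29926 peaks of the 0 h list and the 2247 peaks of the 12 h list on chromosomes 1 to 19 and X of GRCm38. A 0 h peak was called kept when a 12 h peak overlapped it by at least 1 bp, and lost otherwise. With 1 library per time there is no replicate check and no test between times. Intervals are exact Clopper-Pearson 95% intervals over peaks, which cover counting error only. Read depth is unknown, so a lost peak has no listed 12 h peak but may hold signal under the threshold of the peak caller.

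CTCF is a DNA-binding protein with a row of zinc fingers that reads a long, GC-rich motif. At many of its sites it halts loop extrusion by cohesin, a ring-shaped protein complex, and so marks loop anchors and domain borders. It also binds near gene starts. In embryonic stem cells a degron is the usual way to remove it, since the cells do not survive its lasting loss.

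The motif rebuilt from the 0 h sites, with the consensus GCCACNAGGGGGCGCNN, gives the label its check. It matched within 100 bp of the summit at 91.2% of 0 h peaks, and at 91.5% of those on chromosomes not used to build it. The score threshold was set so that 5% of the same sites shifted by 100 kb pass it. Matches of the strongest peaks are shown here because the base pairs inside the match differed between kept and lost peaks. They are 41 bases of the RefSeq GRCm38 genome on the strand of the match, with the 17 bases of the match in capitals and positions counted from 1 at its first base. The first set holds 4 of the 5 strongest kept peaks within 1 kb of a protein-coding start site (that of H2-DMa, in an untranslated exon, is not shown) and Ocel1, the strongest peak of the 12 h list:
Exosc8, chr3:54735459-54735499, + strand: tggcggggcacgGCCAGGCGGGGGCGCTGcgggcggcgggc
Vps36, chr8:22192742-22192782, + strand: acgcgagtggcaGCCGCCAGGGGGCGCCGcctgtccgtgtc
Nipsnap2, chr5:129724947-129724987, - strand: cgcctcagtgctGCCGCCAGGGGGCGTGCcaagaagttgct
Rapgef1, chr2:29619626-29619666, + strand: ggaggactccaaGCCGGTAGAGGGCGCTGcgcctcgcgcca
Ocel1, chr8:71371756-71371796, + strand: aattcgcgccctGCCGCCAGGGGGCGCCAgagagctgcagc

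Ocel1 had a 0 h fold of 58.5, and the other kept peaks above had folds of 73.3 to 130.3. The strongest lost peaks within 1 kb of a protein-coding start site, with 0 h folds of 63.8 to 73.0, carried these:
Comtd1, chr14:21849030-21849070, - strand: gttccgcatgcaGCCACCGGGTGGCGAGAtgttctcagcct
Pkn3, chr2:30077590-30077630, + strand: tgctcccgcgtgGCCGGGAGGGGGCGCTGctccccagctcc
Adrm1, chr2:180171386-180171426, + strand: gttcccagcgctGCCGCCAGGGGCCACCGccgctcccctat
Synm, chr7:67759842-67759882, - strand: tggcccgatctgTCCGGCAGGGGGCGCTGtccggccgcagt

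Away from genes, 4 of the 5 strongest kept peaks more than 10 kb from any start site carried these matches, each named by its nearest gene:
Ccr1, chr9:123925430-123925470, + strand: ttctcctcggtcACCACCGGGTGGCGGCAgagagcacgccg
Rbm19, chr5:120102916-120102956, - strand: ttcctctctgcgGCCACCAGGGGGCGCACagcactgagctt
Gm5533, chr1:181888943-181888983, + strand: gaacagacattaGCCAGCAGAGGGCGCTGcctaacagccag
Kcnk18, chr19:59239619-59239659, + strand: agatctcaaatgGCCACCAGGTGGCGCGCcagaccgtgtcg

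Of the 5 strongest lost peaks at that distance, 1 in an exon of Coa5 had no match, and the other 4 carried these:
Hif1an, chr19:44582766-44582806, - strand: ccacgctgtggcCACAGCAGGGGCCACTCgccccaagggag
Jph3, chr8:121751604-121751644, - strand: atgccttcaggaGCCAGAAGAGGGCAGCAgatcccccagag
Iqsec1, chr6:90737599-90737639, - strand: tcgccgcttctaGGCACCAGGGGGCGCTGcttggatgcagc
Med4, chr14:73524893-73524933, - strand: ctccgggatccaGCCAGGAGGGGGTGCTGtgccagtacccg
A CpG at positions 13 and 14 is present in all 9 kept matches printed here, in 3 of the 4 lost ones near start sites and in 1 of the 4 lost ones away from genes. These counts cover a handful of peaks, and the same step is counted over the whole list below.

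CTCF peaks were almost all lost after 12 h of IAA, and the few that were kept came from the top of the 0 h list. Of 29926 peaks, 2227 were kept, which is 7.44% (7.15% to 7.74%), and 27699 were lost. Shifting the 0 h peaks by 100 kb in both directions left 107 of 59852 (0.179%) on a 12 h peak. In the other direction, 2236 of the 2247 peaks of the 12 h list (99.5%) overlapped a 0 h peak. The 12 h list was thus close to a subset of the 0 h list, and its peaks covered 0.611 Mb against 13.3 Mb.

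Strength at 0 h separated kept from lost peaks more than any other property examined. The fold enrichment of a peak, the authors' ratio of signal to local background, had a median of 27.7 in kept peaks (5th to 95th percentile 15.1 to 53.1) and of 11.5 in lost peaks (4.95 to 27.7). The ranges overlapped. Of 9895 peaks with a fold of 5 to 10, 12 were kept (0.121%). The share was 6.29% at a fold of 15 to 20, 18.8% at 20 to 30, 41.8% at 30 to 40 and 65.7% at 40 to 60. Within the list ranked by the deposited −log10 q-value, the median percentile was 92.3 for kept and 46.3 for lost peaks. At the very top of the list most peaks were kept and some were not: 75 of the strongest 100 peaks and 610 of the strongest 1000 were kept. The 2247 strongest 0 h peaks, a number equal to the length of the 12 h list, held 1091 kept peaks (48.6%), so the 12 h list was not simply the top of the 0 h list.

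**Figure D1:**
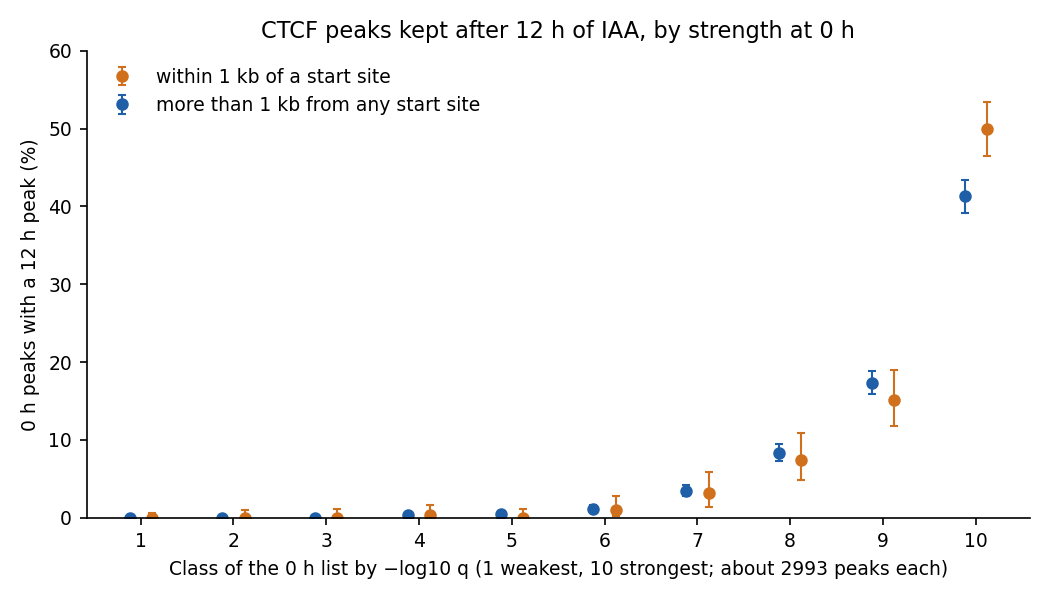
Percentage of 0 h CTCF peaks with an overlapping 12 h peak (vertical axis) by strength at 0 h (horizontal axis, 10 equal classes of −log10 q), for peaks within 1 kb of a start site (orange) and farther away (blue), with exact 95% intervals. Kept peaks are rare up to class 6 and reach 50.0% and 41.3% in class 10, the one class in which the intervals of the 2 kinds of place do not overlap. Class 10 spans −log10 q from 97.4 to 658.5, so strength is not equal inside it.

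Because strength separated the peaks this much, each comparison that follows is given as counted and as standardised. The standardised share is the kept share that a group would have if its peaks were spread over the 10 equal classes of −log10 q as the whole list is. Its 95% interval is a normal one.

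Kept peaks were wide at 0 h and narrow at 12 h. The median width at 0 h was 570 bp for kept and 408 bp for lost peaks. Width followed strength, with a Spearman correlation of 0.77 between fold and width over the 29926 peaks, and within single classes of strength the medians differed by −6 to 22 bp. At 12 h the same kept peaks had a median width of 253 bp, and 2224 of 2227 were narrower than at 0 h. Their summits stayed in place: the median shift was 11 bp and 99.0% of summits lay within 100 bp. The order of the kept peaks was kept in part, with a Spearman correlation of 0.449 between their ranks at 0 h and 12 h over 2227 pairs. For fold it was 0.479 and for width 0.150. These correlations describe peaks that share the same 2 libraries.

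Single peaks show how loose that order was. The strongest kept peak lay at Exosc8, which encodes a subunit of the RNA exosome, at chr3:54735083-54735789, with a fold of 130.3 at 0 h. At 12 h its fold was 16.4 on the scale of that list, and its percentile was 87.3. Gins4, a component of the GINS complex of DNA replication, had a peak at chr8:23237247-23238166 with a fold of 70.1 at 0 h and of 4.65 at 12 h, at percentile 4.74. Ocel1, which encodes a protein with an occludin-like domain, had the strongest 12 h peak, with a fold of 42.6, and a 0 h fold of 58.5. The other strongest 12 h peaks lay near the start sites of Atxn7l1, Erlin2, Tmem106c and Kifc5b, each within 300 bp of one.

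Near start sites more peaks were kept, and the surplus was much smaller among peaks of equal strength. Within 1 kb of an annotated start site 512 of 4025 peaks were kept (12.7%, 11.7% to 13.8%), against 6.62% (6.32% to 6.93%) farther away. After standardisation the shares were 7.70% and 7.25%, a difference of 0.45 points (−0.24 to 1.14), whose interval includes 0. That depends on the setting: with classes by fold enrichment the difference was 1.40 points (0.65 to 2.15), with an overlap of at least 50% of both peaks 1.54 points (1.00 to 2.07), and with 50 classes −0.48 points (−1.21 to 0.24). In the strongest class alone the intervals did not overlap. There 50.0% (46.5% to 53.5%) of 830 peaks near start sites and 41.3% (39.2% to 43.4%) of 2162 others were kept. That class spans −log10 q from 97.4 to 658.5, so strength was not equal inside it. The kept share also went with distance on a short scale. Peaks within 100 bp of a start site were kept in 20.6% of cases (18.3% to 23.0%), those at 100 to 300 bp in 12.2% and those at 300 to 1000 bp in 7.65%. Standardised, these were 9.48%, 7.47% and 6.50%. The median percentiles in the 0 h list fell in the same order, from 69.2 to 54.1 and 46.8, and finer classes of strength were not tried for these distances. At 100 to 300 kb the share was 3.36%, but 7.67% when standardised. Upstream of the start site 16.6% of 2446 peaks were kept and downstream 6.78% of 1579, or 8.19% and 6.35% standardised (difference 1.84 points, 0.47 to 3.22). Upstream peaks were also the stronger ones, with a median percentile of 63.4 against 41.9, and finer classes were not tried here either.

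Counted by gene, 2867 protein-coding genes were nearest to a 0 h peak within 1 kb of their start site, and 413 of them (14.4%, 13.1% to 15.7%) had a kept one. The strongest kept ones, in order, were Exosc8, Vps36, Nipsnap2, H2-DMa, Rapgef1, Gins4, Erlin2, Ocel1, Crls1 and Nol9. Vps36 encodes a subunit of the ESCRT-II sorting complex, H2-DMa a chain of the chaperone that loads class II molecules, Crls1 cardiolipin synthase and Nol9 a kinase of ribosomal RNA processing. Their 0 h folds ran from 58.5 at Ocel1 to 130.3 at Exosc8. The strongest lost ones were Comtd1, Pkn3, Adrm1, Synm, Dhrs13, Zfp398, Myrf, Rplp0, Plekhg4 and Disp3, with 0 h folds from 54.0 at Zfp398 to 73.0 at Adrm1. Adrm1 encodes a ubiquitin receptor of the proteasome, Synm an intermediate filament protein, Myrf the myelin regulatory factor and Rplp0 a protein of the ribosomal stalk. The folds of both sets overlapped, so peaks equally strong at 0 h were found on both sides.

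Away from start sites, peaks inside genes were lost more often than peaks between genes. Among peaks more than 1 kb from any start site, 5.24% of 12968 intronic peaks (4.86% to 5.63%) and 8.21% of 11364 intergenic peaks (7.71% to 8.73%) were kept. Their median folds were close, at 11.96 and 12.28, and the standardised difference was −2.92 points (−3.53 to −2.32). It was −2.31 points (−2.99 to −1.63) when the classes also split peaks by the number of CpG dinucleotides. The order was the same in the 4 classes of distance compared, from 1 to 100 kb from a start site. Standardised, the shares were 5.43% against 9.69% at 10 to 30 kb and 6.73% against 8.26% at 30 to 100 kb. This comparison of introns was chosen after the data were seen.

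As counted, coding and 3′ untranslated exons lay near the introns. Noncoding exons, those of transcripts without a coding sequence, lay above them. Coding exons had a kept share of 5.76% (41 of 712), 3′ untranslated exons of 6.26% (36 of 575) and noncoding exons of 9.43% (25 of 265). Standardised, these were 4.31% (2.96% to 5.67%), 4.36% (2.88% to 5.85%) and 8.08% (4.97% to 11.2%), against 6.03% (5.64% to 6.43%) for introns. Over all exons the standardised share was 5.06%, against 8.96% for intergenic peaks, a difference of −3.90 points (−4.92 to −2.88). In introns of protein-coding genes the share was 5.03%, and in introns of other genes only it was 7.21% (5.79% and 8.37% standardised). Within introns of protein-coding genes the strand of the motif gave no detectable difference: 5.03% of peaks were kept with the motif on the strand of the gene and 5.47% with it on the opposite strand, a standardised difference of −0.13 points (−0.97 to 0.71).

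**Figure D2:**
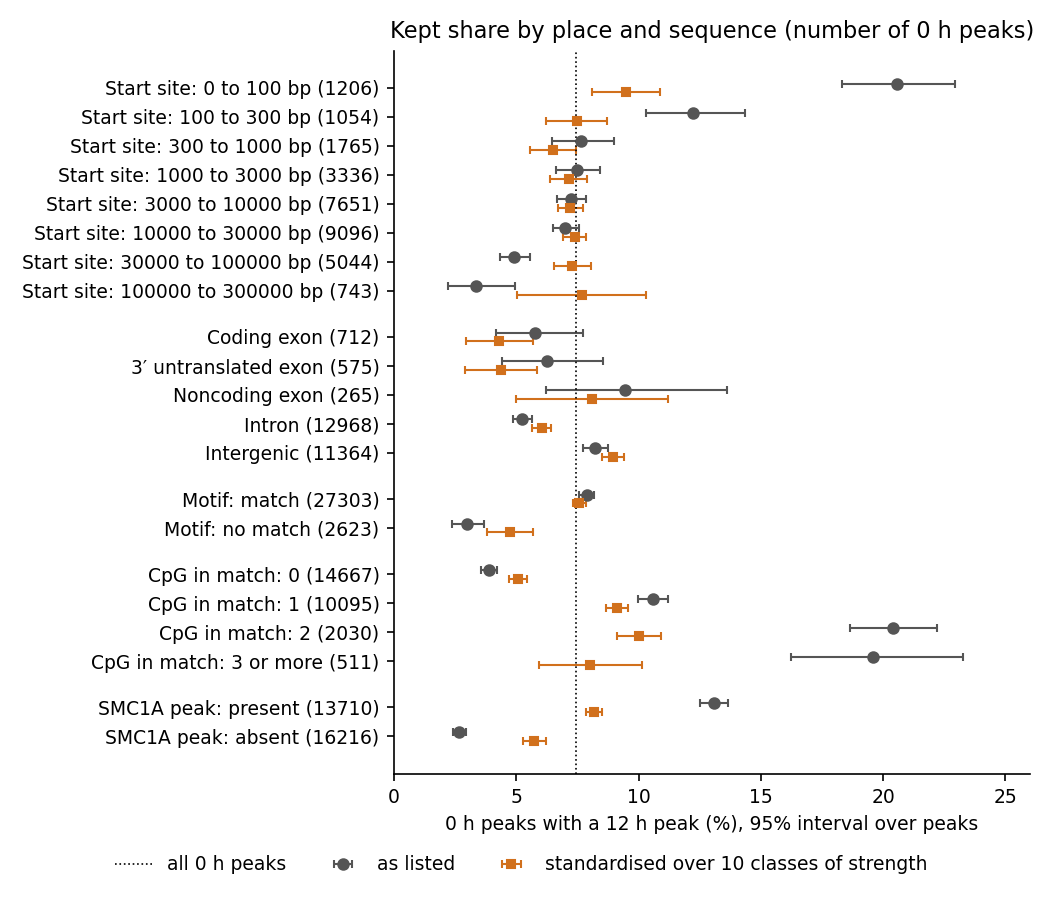
Percentage of 0 h CTCF peaks kept at 12 h (horizontal axis) by distance to a start site, annotation more than 1 kb from a start site, motif match, CpG in the match and cohesin, as listed (grey circles) and standardised over classes of strength (orange squares), with 95% intervals and the number of peaks in brackets. The excess within 100 bp of a start site shrinks from 20.6% to 9.48% when standardised, while the gaps between intron and intergenic peaks and between matches with and without CpG remain.

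The sequence of the motif match also set kept peaks apart. Peaks with a match were kept in 7.87% of cases and peaks without one in 2.97% (78 of 2623), or 7.58% and 4.75% standardised, a difference of 2.83 points (1.86 to 3.81). Among matches the standardised share also went with the motif score, from 4.70% in class 2 of 10 equal classes of score to 10.99% in class 10. Matches with and without a CpG dinucleotide differed as well. The consensus itself holds a CpG at positions 13 and 14, so score and CpG are not independent. CpG is the step at which mammalian DNA can carry methylation, which was not measured here. Of 12636 matches with a CpG, 12.5% (11.9% to 13.1%) were kept, and of 14667 without one, 3.87% (3.56% to 4.19%). Standardised, the shares were 9.34% and 5.05%, which differ by 4.28 points (3.75 to 4.82).

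The largest difference between steps of the motif was at its consensus CpG. A CpG at positions 13 and 14 was present in 67.4% of the matches of kept peaks and in 37.7% of those of lost peaks. Peaks with it were kept in 13.3% of cases and peaks without it in 4.28% (9.83% and 5.24% standardised, a difference of 4.59 points, 4.05 to 5.13). Its single bases differed too. The standardised difference was 3.83 points (3.29 to 4.36) for a G at position 14 and 2.51 points (1.80 to 3.23) for a C at position 13. Whether the CpG or its single consensus bases went with keeping was not tested. At positions 3 and 4 the CpG was in 17.9% and 6.81% of matches, with a standardised difference of 1.75 points (0.84 to 2.66). At positions 15 and 16, where 545 matches hold a CpG, 20.6% of them were kept, and the standardised difference was 2.07 points (−0.03 to 4.17). At positions 5 and 6, 7 and 8, 10 and 11, and 16 and 17 it was 0.91, 0.99, −1.28 and −0.93 points, and these intervals include 0 as well. Of the 8 lost matches printed above, those at Adrm1, Hif1an, Jph3 and Med4 lack the CpG at positions 13 and 14, and those at Comtd1, Pkn3, Synm and Iqsec1 hold it.

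**Figure D3:**
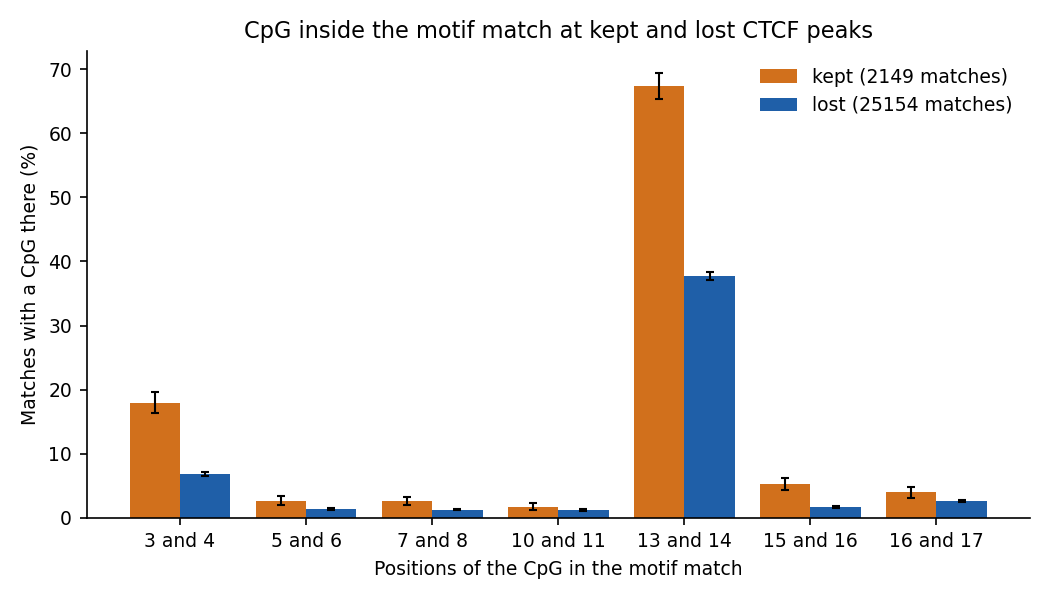
Percentage of motif matches with a CpG (vertical axis) at each pair of neighbouring positions of the match that holds a CpG in at least 200 matches (horizontal axis), for kept (orange) and lost (blue) 0 h peaks, with exact 95% intervals. The largest gap is at positions 13 and 14, with 67.4% against 37.7%.

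The sequence around the match showed the same direction up to a point. With 0 or 1 CpG in the 201 bp around the summit 1.76% of 8190 peaks were kept, with 4 to 6 it was 10.5%, and with 12 or more 19.1%. Standardised, the shares were 3.58%, 9.05% and 7.91%, and 10.6% at 7 to 11 CpG, so the densest group lay below its neighbour by 2.71 points (1.48 to 3.94). Among matches that themselves lack a CpG, the standardised share was 3.25% with 0 or 1 CpG in the flanks and 9.52% with 7 or more. Among matches with a CpG it was 6.32% and 9.61% in the same groups of flanks. The share was higher with a CpG in the match in each group with up to 6 CpG in the flanks. With 7 or more, the intervals without (7.69% to 11.35%) and with (8.78% to 10.44%) a CpG in the match overlapped. Peaks in sequence that the genome marks as repeats over at least 50% of the 201 bp were kept in 2.07% of 6041 cases, against 10.8% of peaks free of repeats (5.45% and 7.76% standardised). The choice of CpG, flanks and repeats was made after the data were seen.

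Kept peaks were more often joined by cohesin before depletion. A peak of the cohesin subunit SMC1A at 0 h lay at 80.6% of kept sites (78.9% to 82.2%) and 43.0% of lost sites (42.4% to 43.6%). Weighted to the strength of the kept peaks, the lost sites came to 72.0%. Seen from the other side, 13.1% of sites with SMC1A and 2.66% of sites without were kept, or 8.16% and 5.73% standardised (difference 2.43 points, 1.86 to 3.00). The SMC1A list held 16723 peaks on these chromosomes at 0 h and 10 at 12 h. Of the 10, 6 lay at kept sites and none at lost sites, and a list this short says little about cohesin at the kept sites.

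The 4 chromatin remodelers with a biotin tag, ATPases that move or evict nucleosomes, were also listed more often at kept sites. They were mapped in degron cells that carry that tag, in 2 libraries per time, so they share no library with the CTCF lists. At 0 h CHD8 lay at 59.99% and 50.8% of kept sites in its 2 libraries and at 23.6% and 19.2% of lost sites, which weighted to the strength of the kept peaks is 46.6% and 39.2%. SMARCA4 lay at 60.5% and 46.7% of kept sites and, so weighted, at 47.3% and 33.3% of lost sites. CHD4 gave 74.9% and 58.6% against 62.6% and 49.4%. The gap was smallest for SMARCA5, with 27.4% and 39.8% against 20.8% and 32.6%. At 12 h the weighted gap was 17.8 and 10.7 points for CHD4, and 15.6 and 14.4 points for CHD8. It was 15.7 and 16.9 points for SMARCA4, and 11.6 and 5.66 points for SMARCA5. Kept sites were thus the more often occupied in all 8 libraries at each time, whose lists differ in length.

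Loss of peaks opened long stretches with no listed CTCF peak. The median gap between neighbouring summits was 27463.5 bp at 0 h and 271860 bp at 12 h. Gaps over 1 Mb numbered 283 at 0 h and 520 at 12 h, and they took up 20.3% and 76.1% of chromosomes 1 to 19 and X. The longest gap at either time was on chromosome X, from 23565771 to 35813364 at 0 h and from 75674032 to 134585581 at 12 h. On the autosomes the longest at 12 h ran on chromosome 16 from 50736962 to 84955622.

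**Figure D4:**
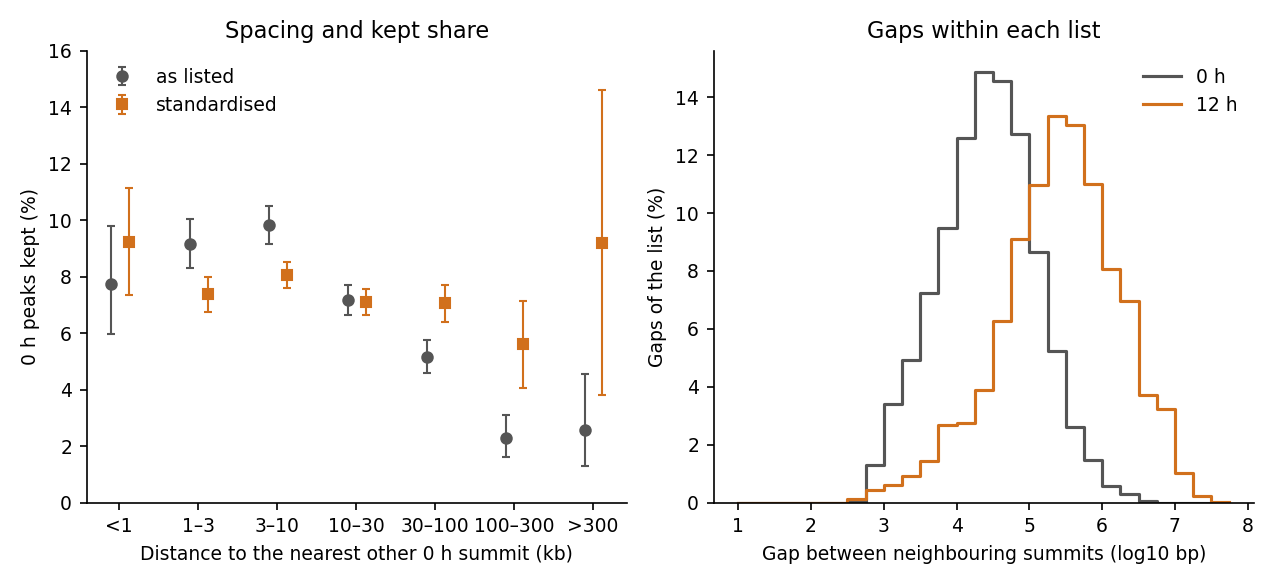
Left, percentage of 0 h peaks kept by distance to the nearest other 0 h summit, as listed (grey) and standardised (orange), with 95% intervals; right, percentage of the gaps between neighbouring summits in each list by their length on a log10 axis. Kept shares as listed reach 9.82% at 3 to 10 kb, the standardised ones lie closer together, and the gaps of the 12 h list are longer, with a median of 271860 against 27463.5 bp.

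Peaks with a close neighbour at 0 h were kept more often, by less after standardisation. Peaks with another summit within 3 to 10 kb were kept in 9.82% of cases, those at 10 to 30 kb in 7.16%, those at 30 to 100 kb in 5.15% and those at 100 to 300 kb in 2.28%. The standardised shares were 8.06%, 7.11%, 7.06% and 5.61%. The remaining classes did not follow this order. Under 1 kb the share was 7.74% as counted and 9.24% standardised, and at 1 to 3 kb it was 9.15% and 7.38%. Over 300 kb it was 2.57% and 9.20%, the latter with a wide interval of 3.81% to 14.6%. Peaks with a summit within 10 kb exceeded the others by 0.91 points (0.39 to 1.43) after standardisation. The fate of the neighbour went with that of the peak at short range. Within 3 kb, 13.7% of 459 peaks with a kept neighbour and 8.46% of 4683 peaks with a lost one were kept (10.2% and 7.32% standardised), while at 10 to 30 kb the shares were 7.51% and 7.13%. Over all peaks with a neighbour within 10 kb the standardised difference was 1.92 points (0.59 to 3.25). This difference turned to −1.31 points (−2.72 to 0.11) when kept meant an overlap of at least 50% of both peaks. Peaks that were each other's nearest neighbour were counted from both sides, and these intervals do not allow for that.

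Pairs of neighbouring motifs are of interest because loops tend to join motifs that point at each other. Among neighbours within 10 kb, both peaks were kept in 22 of 1275 convergent pairs (1.73%, 1.08% to 2.60%), in 35 of 1797 divergent pairs (1.95%, 1.36% to 2.70%) and in 48 of 3590 tandem pairs (1.34%, 0.99% to 1.77%). The intervals overlap. Peaks with 6 to 9 other 0 h summits within 50 kb were kept in 10.99% of 3531 cases, and those with 10 or more in 11% of 500. After standardisation these shares were 7.5% and 7.63%, close to the 7.44% of the whole list. The densest 50 kb windows at 0 h kept few peaks, although their median percentiles, in the order given here, were 83.5, 78.6 and 84.4. They hold too few peaks to give a rate. A window on chromosome 1 from 86500001 to 86550000, with Pde6d and Ptma, held 10 peaks and kept 1. A window on chromosome 17 from 30700001 to 30750000, in Dnah8, held 10 and kept 0. A window on chromosome 4 from 152100001 to 152150000, with Espn, Plekhg5 and Tnfrsf25, held 9 and kept 1.

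Chromosomes differed in kept share, from 9.94% on chromosome 11 (233 of 2345, 8.75% to 11.2%) to 2.22% on chromosome X (12 of 540, 1.15% to 3.85%). Among autosomes the lowest was chromosome 16 with 5.18% (3.84% to 6.81%). Over the 19 autosomes the kept share went with the number of 0 h peaks per Mb, with a Spearman correlation of 0.72, and the standardised share hardly did, with 0.12. The points share both libraries. Chromosome X had 3.16 peaks per Mb and a median 0 h fold of 9.20, against 12.42 on the autosomes. Its standardised share was 11.7%, with a wide interval of 5.41% to 17.99%, because it had few strong peaks. E14 is a male line with a single X, so copy number and peak strength on X cannot be told apart here.

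**Figure D5:**
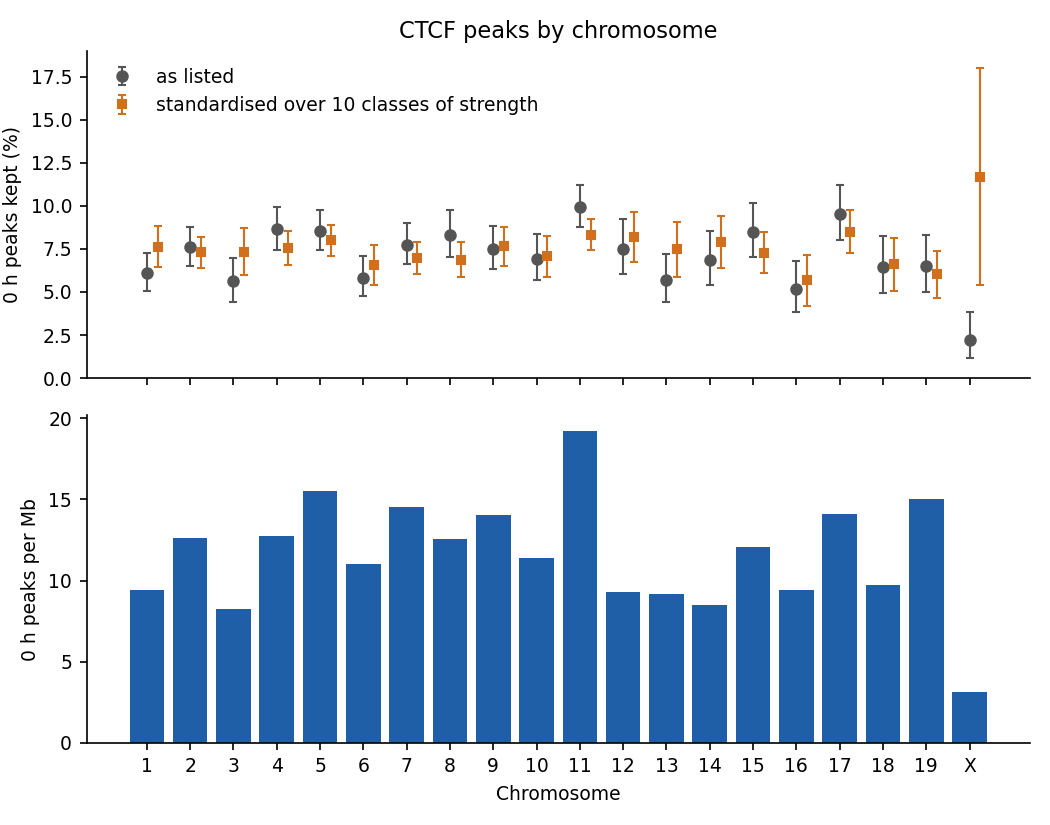
Top, percentage of 0 h CTCF peaks kept on each chromosome, as listed (grey circles) and standardised over classes of strength (orange squares), with 95% intervals; bottom, 0 h peaks per Mb. Chromosome 11 has the highest share as listed (9.94%) and chromosome X the lowest (2.22%), and X has the widest standardised interval.

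Loci known for CTCF or for stem cell identity were described with 7 gene lists, each gene taken with 10 kb to either side. Around 12 pluripotency factors there were 28 peaks at 0 h and 2 were kept, against 2.40 at the rate of their classes of strength. Both lay within 10 kb of Sox2, a core pluripotency factor, at chr3:34640716-34641175 and chr3:34647671-34648102, with 0 h folds of 22.1 and 17.5 and 12 h folds of 12.6 and 8.24. Esrrb, an orphan nuclear receptor of naive cells, had 6 peaks with folds up to 25.5 and kept 0. Sall4 and Tbx3, with 5 peaks each within 10 kb and folds up to 30.2 and 26.9, also kept 0. The strongest of those at Sall4 was nearest to the start of Atp9a.

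Of 26 peaks around the Hox genes, which pattern the body axis, 4 were kept, against 2.73 at the rate of their classes. They lay 64 bp from the start of Hoxa5 (fold 29.1), 3095 bp from that of Hoxa7 (30.4), 198 bp from that of Hoxc10 (27.9) and in the Hoxd cluster at chr2:74702180-74702589 (13.3). The strongest peak of the Hoxa cluster, with a fold of 53.8, 1371 bp from the start of Hoxa3 and with no motif match, was lost. Of 27 peaks around imprinted genes 1 was kept, against 1.38 at the rate of their classes. It lay at Meg3 (fold 23.6 at 0 h and 20.5 at 12 h), while 3 peaks within 10 kb of Cdkn1c, with folds up to 32.6, were lost. The clustered protocadherin alpha genes, whose promoters CTCF binds one by one, lost all of 15 peaks. Their median fold was 8.45, and 0.30 kept peaks would be counted at the rate of their classes. Firre, an X-linked repeat locus, lost all of its 11 peaks, whose folds ran from 4.79 to 10.7. The 14 peaks of its list would hold 0.0087 kept peaks at the rate of their classes.

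Among genes for CTCF, cohesin and their regulators 2 of 25 peaks were kept, against 2.67 at the rate of their classes. One lay 35 bp from the start of Pds5b, a cohesin regulator (fold 27.9). The other lay within 10 kb of Esco1, an acetyltransferase of cohesin, but 26 bp from the start of Snrpd1 (fold 50.1), while the peak 55 bp from the start of Esco1 itself (fold 24.1) was lost. The peak 262 bp from the start of Ctcf had a fold of 11.5 and was lost, as were the other 2 peaks within 10 kb of that gene. Among regulators of early differentiation 3 of 24 were kept, near Neurog2 (41.3), Cdx2 (28.4) and Tbx6 (36.0), against 2.81 at the rate of their classes. With counts this small, the intervals of the lists' kept shares all include the 7.44% of the whole list.

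Weak peaks were rarely kept, while many strong ones were lost. The weakest kept peaks lay at chr6:47753650-47754258 and chr6:47761271-47762170, at percentiles 4.82 and 11.1 of the 0 h list, without a motif match. Their folds were 4.32 and 6.05 at 0 h and 5.03 and 6.26 at 12 h, and the 12 h peaks were 560 and 1019 bp wide. The next lowest had percentiles of 30.2 to 31.0 and a match with no CpG at positions 13 and 14. Their nearest start sites were those of 4930573C15Rik (31223 bp away), Xiap (34549 bp) and Nectin2 (5595 bp). The 11 peaks of the 12 h list without a 0 h peak had folds of 3.93 to 7.36, and 2 of them had a motif match. The strongest lay 15680 bp from the start of Sgk1, a serum- and glucocorticoid-regulated kinase. The nearest protein-coding start sites of the others were those of Adsl, Nus1, Olfm4, Api5, Cldn11, Igfbp7, Polr1a, Muc6, Fbxo9 and C130026I21Rik. Their distances ran from 6485 bp at Adsl to 850003 bp at Api5, so several of these genes were far from the peak.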

How the data were processed

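Peak lists of the CTCF libraries were analysed, with those of SMC1A and of 4 remodelers for single comparisons. The submitters' processing notes name Trim Galore, Bowtie2, MACS2 and deepTools and the builds mm10 and hg38, without versions or roles. Settings and the control of the peak caller are not given in the sources used here. The lists carry no header. Before deposit the authors called peaks in each library, and the deposited fold enrichment of a peak is its ratio to local background, as the narrowPeak layout gives it. The authors' peak calling also gave the deposited −log10 p-value and −log10 q-value of each peak. Each list is thresholded on its own library, so a difference in depth, which is unknown, and a difference in binding cannot be told apart by overlap. Groups come from the labels.

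Overlap, distances to GENCODE M21 basic start sites, annotation at the summit (coding exon, untranslated exon, noncoding exon, intron, intergenic, in that order), spacing and standardisation over 10 classes of −log10 q were computed in Python 3.11.15 with numpy 2.4.6 and scipy 1.17.1. A site was the summit with 100 bp to either side. The motif model of 17 bp was built from sites on even-numbered chromosomes (match at 90.9% of those and 91.5% of the others), with a threshold passed by 5% of shifted sites. The standardisation and the motif search were checked on simulated data, and the overlap against bedtools 2.31.1. Named peaks are the 10 strongest kept and lost near protein-coding start sites, the 5 strongest of each more than 10 kb from any, the 5 lowest kept, the 5 strongest of 12 h, and all of 12 h only, with Atxn7l1 and the gene nearest to each given for place. In each gene list, the genes with the most kept and most 0 h peaks were named, and others after their values were seen. Members, lists and comparisons were chosen with earlier results of these data known. Alternatives covered the overlap rule, a −log10 q minimum, the classes, the distances and the motif threshold.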

Additional observations from a re-analysis of the deposited data

Results flagged for a closer look

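Chromosome Y was outside the comparison and held 8 CTCF peaks at 0 h, more than the 3 that a count of 0 allows. Of these, 1 overlapped the single peak that the 12 h list held there.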

How the results depend on the processing

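No paired analysis was possible because CTCF has 1 library per time. Of 84 values of 14 results under the alternatives, 80 had the sign of the value reported and 56 lay inside its 95% interval. An overlap of at least 50% of both peaks kept 837 peaks. It moved the kept share to 2.80%, the promoter difference to 4.20 points, its standardised form to 1.54, and the standardised differences to −2.04 (exon), −1.93 (intron), 0.32 (close spacing), −1.31 (kept neighbour, reversed), 0.95 (motif), 0.91 (SMC1A) and 2.16 points (CpG in the match). The fold ratio was then 2.30 in place of 2.40, the width difference 96 in place of 162 bp and the rank correlation 0.685. The cause was not tested, but 12 h peaks were narrower, so this rule requires similar widths. In the upper 50% of the 0 h list the kept share was 14.7% and the promoter difference 10.7 points. The standardised differences there were −0.26 (promoter), −8.41 (exon), −5.58 (intron), 1.65 (close spacing), 3.43 (kept neighbour), 5.56 (motif), 4.35 (SMC1A) and 7.73 points (CpG in the match), the fold ratio 1.55 and the width difference 76.5 bp. A limit of 2 kb gave a promoter difference of 4.60 points. The standardised promoter difference was 1.40 points with classes by fold enrichment and −0.48 with 50 classes, so its sign and its interval, which excludes 0 in the first case, depend on the classes. A −log10 q of at least 5 and a summit distance of 100 bp left all values within their intervals. Rare kept peaks in the lower classes limit the standardised shares, that of chromosome X most.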
